A study of Sus scrofa with 4 samples.

Results

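The miR-15 and miR-16 family was followed in 4 small RNA libraries of primary pig vascular stem cells. Its members were the pig hairpins that the deposited files name mir-15a, mir-15b, mir-16 and mir-195, written here as miR-15a, miR-15b, miR-16 and miR-195. These 4 miRNAs had 5 hairpin entries, since miR-16 has a pair of copies, out of 189 miRNAs with a read and 207 hairpin entries. All 4 members had reads in every library.

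The libraries, 1 for each group, were SVSC MDI, SVSC, IVSC MDI and IVSC. SVSC cells came from subcutaneous fat and IVSC cells from the dorsal longissimus dorsi muscle, although the labels call all 4 adipose derived, and all were at passage 1 in media with 20% serum. MDI was an adipogenic mixture of insulin at 5 mg/l, the glucocorticoid dexamethasone at 0.25 µM and IBMX, which inhibits phosphodiesterases, at 0.5 mM. The inducers were withdrawn after 3 days, growth medium was given back at day 6, and culture went on for a further 3 or 4 days. The sources used here give neither the harvest time of each MDI library nor the age and strain of the pigs, and do not say if 1 animal gave all cultures. With 1 library per group, every ratio compares libraries, and differences between animals, preparations and harvest times cannot be told apart from culture and MDI.

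A miRNA is cut from one arm of a folded hairpin and guides the silencing complex to messenger RNAs that pair with its seed, the bases near its 5′ end. Members of this family share a seed. They are known in human and mouse cells as repressors of cell-cycle genes such as cyclins D1 and E1 and of the survival gene BCL2. In mouse preadipocytes miR-15a is known to target Dlk1, an inhibitor of fat cell differentiation, and miR-195 is known for its part in the cell-cycle exit of mouse heart muscle cells after birth. In a pig gene table of assembly Sscrofa11.1, miR-15a lies next to a copy of miR-16, miR-15b lies next to the other copy within the gene SMC4, and miR-195 lies next to miR-497. Neighbours of this kind can be made from a shared transcript, so each pair is described together here.

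The libraries held 2573249 miRNA reads for SVSC MDI, 17937121 for SVSC, 14810112 for IVSC MDI and 13252168 for IVSC. Levels are given in CPM, the counts per 1000000 miRNA reads of the library. Where no read was seen, up to 3 reads remain possible, which was 1.17, 0.167, 0.203 and 0.226 CPM in the same order. Reads outside the miRNAs also differed, with non-coding RNA entries at 38.5% of all reads in SVSC MDI and between 14.0% and 19.3% in the other 3 libraries. The 6 perivascular and mesenchymal markers (among them miR-143, miR-145 and miR-214) were all detected and summed to between 263603 and 424575 CPM. Most of that sum was miR-143, at 255706 CPM in SVSC to 390300 CPM in SVSC MDI, while miR-214 lay between 246 and 540 CPM. The 5 skeletal muscle markers were all detected too, and summed to 888 CPM in SVSC MDI, 1853 CPM in SVSC, 1137 CPM in IVSC MDI and 6275 CPM in IVSC. In IVSC most of that sum was miR-206, a miRNA of the muscle lineage, at 4874 CPM. The endothelial marker miR-126 lay between 52.6 and 134 CPM. Of the 6 epithelial markers, 5 had no entry in any library and the list summed to at most 3.5 CPM. Of the 4 blood markers, 2 had no entry and the list summed to at most 34.9 CPM. Whether reads could have been matched to markers without an entry cannot be told, so a missing entry does not show that they were absent. The liver marker miR-122 reached 24.1 CPM in SVSC, and the neuronal markers summed to at most 77.7 CPM, in SVSC MDI.

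miR-16 was the most abundant member in every library and miR-195 the least. On the whole hairpin, miR-16 had 1410 CPM in SVSC MDI, 1036 CPM in SVSC, 1049 CPM in IVSC MDI and 948 CPM in IVSC. It ranked between the 37th and 42nd miRNA of a library. miR-15a had 387, 749, 371 and 541 CPM in the same order, and miR-15b 600, 421, 362 and 836 CPM. The order of these middle members changed between libraries, with miR-15b above miR-15a in SVSC MDI and IVSC, below it in SVSC and at nearly the same level in IVSC MDI. miR-195 had 42.0, 36.5, 26.8 and 57.3 CPM, from 108, 655, 397 and 759 reads. Summed over the members, the family held 0.244% of the miRNA reads in SVSC MDI, 0.224% in SVSC, 0.181% in IVSC MDI and 0.238% in IVSC. miR-16 made up 57.8% of that sum in SVSC MDI and 58.0% in IVSC MDI, against 46.2% in SVSC and 39.8% in IVSC. Such shares cover whole hairpins, and the members differed in which stretch of the hairpin their reads came from.

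**Figure D1:**
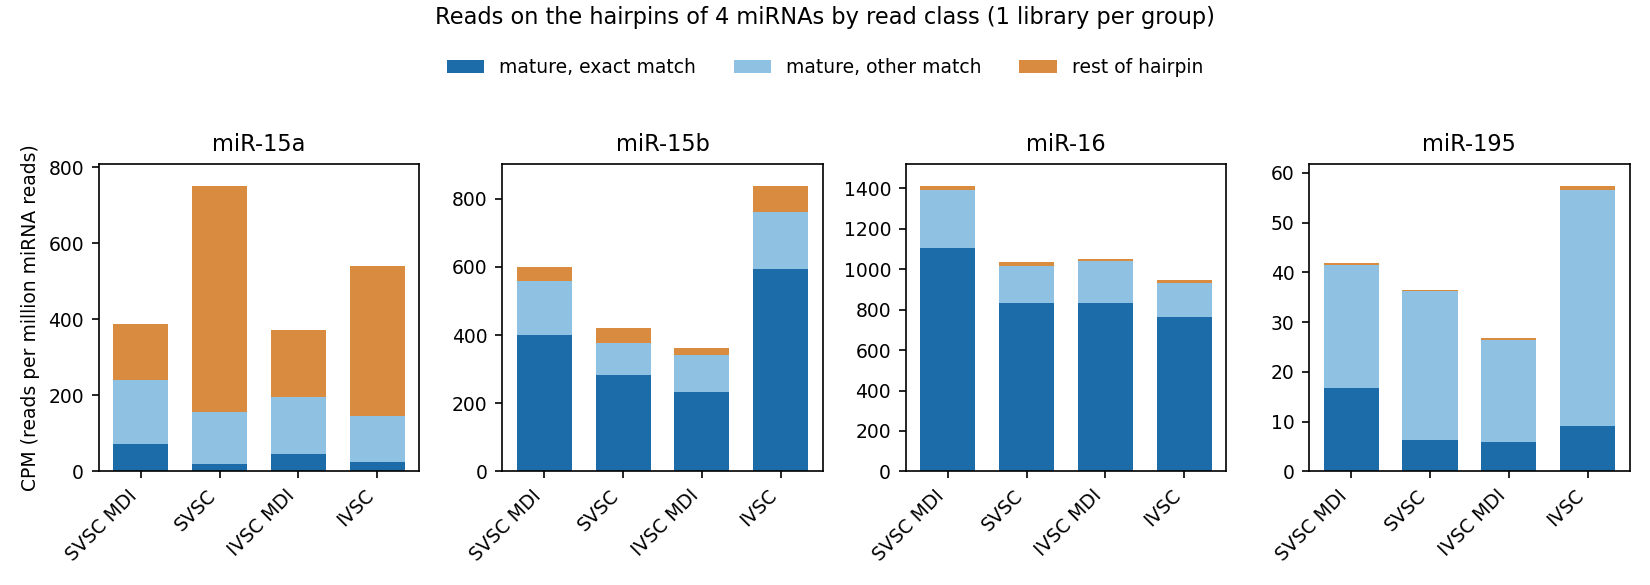
CPM of each member in each library, stacked by read class (exact mature matches, other mature reads, rest of the hairpin). miR-15a carries the large rest-of-hairpin share, from 38.1% in SVSC MDI to 79.3% in SVSC, while miR-16 and miR-195 stay under 2% in every library.

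The files divide the reads of a hairpin into those on the mature miRNA, those on the opposite star strand and those on the rest of the hairpin. None of the members had a star read in any library, while 9 of the 189 miRNAs did. A star count of 0 was also given for miR-21, which had 7906987 hairpin reads in SVSC. Whether a star strand is defined for each hairpin cannot be told from these counts. The count of 0 thus sets no limit on reads from the opposite arm, which may be counted in the rest of the hairpin. miR-15a stood out from the other members by the rest of its hairpin. That class held 380 of 997 reads in SVSC MDI and 10657 of 13442 in SVSC. It held 2597 of 5496 reads in IVSC MDI and 5253 of 7172 in IVSC. The shares were 38.1% (exact 95% binomial interval 35.1% to 41.2%) in SVSC MDI, against 79.3% (78.6% to 80.0%) in SVSC. They were 47.3% (45.9% to 48.6%) in IVSC MDI, against 73.2% (72.2% to 74.3%) in IVSC. The rest of the hairpin was thus the larger class of miR-15a in both undifferentiated libraries and the smaller one in both MDI libraries. For miR-15b the share was 7.12% in SVSC MDI, 10.8% in SVSC, 5.78% in IVSC MDI and 8.83% in IVSC. For miR-16 it lay between 1.00% and 1.87%, and for miR-195 between 0.916% and 1.51%.

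Among the 114 miRNAs with at least 100 reads in every library, 7 (6.14%) had a rest-of-hairpin share at least 10 percentage points lower with MDI in both cultures. miR-15a was one of these 7, with a change of -41.2 points in SVSC, the lowest of the 114, and of -26.0 points in IVSC, the next to lowest. The others, named after their values were seen, were miR-22, miR-146b, miR-221, miR-296, miR-361 and miR-1306. For miR-15b the change was -3.70 points in SVSC and -3.05 points in IVSC. These shares come from reads within 1 library, so the scaling between libraries does not enter them. Intervals cover counting error only.

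**Figure D2:**
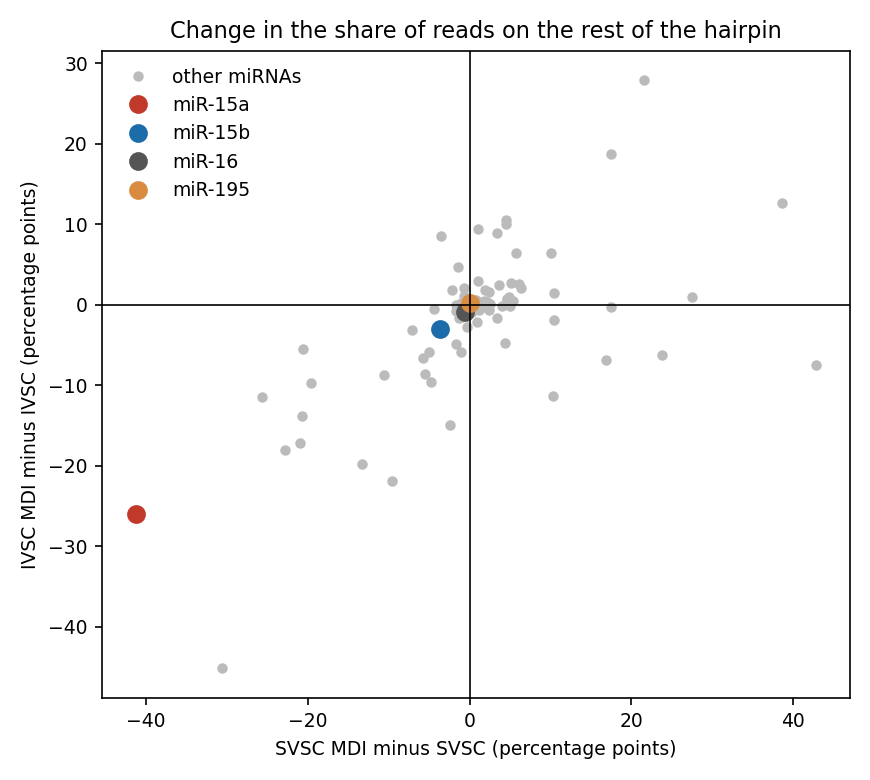
Change with MDI in the share of reads on the rest of the hairpin, in percentage points, for 114 miRNAs, with SVSC on one axis and IVSC on the other. miR-15a lies at the far lower left (-41.2 and -26.0 points), miR-15b is slightly below 0 in both cultures, and miR-16 and miR-195 lie near 0.

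A miRNA was called higher or lower between 2 libraries when its hairpin CPM differed by at least 2-fold, the 95% counting interval of the ratio excluded 1 and it reached 10 CPM in at least 1 of the 2 libraries. In SVSC MDI against SVSC, 0 of 4 members were called, where 34.2% of the 146 miRNAs compared were higher and 21.9% lower. The median log2 ratio was 0.32 over the members and 0.41 over all miRNAs compared. In IVSC MDI against IVSC, 2 of 4 members were called, both lower, where 23.7% of the 152 miRNAs compared were lower and 16.4% higher. The median log2 ratio was -0.82 over the members and -0.04 over all. Relative to scaling by miRNA reads, 4 other scalings (TMM, DESeq2 size factors, all reads, and miRNA reads without miR-21, the most abundant miRNA) shifted the log2 ratios of SVSC MDI over SVSC by -0.50 to -0.40. They shifted those of IVSC MDI over IVSC by -0.04 to 0.22.

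**Figure D3:**
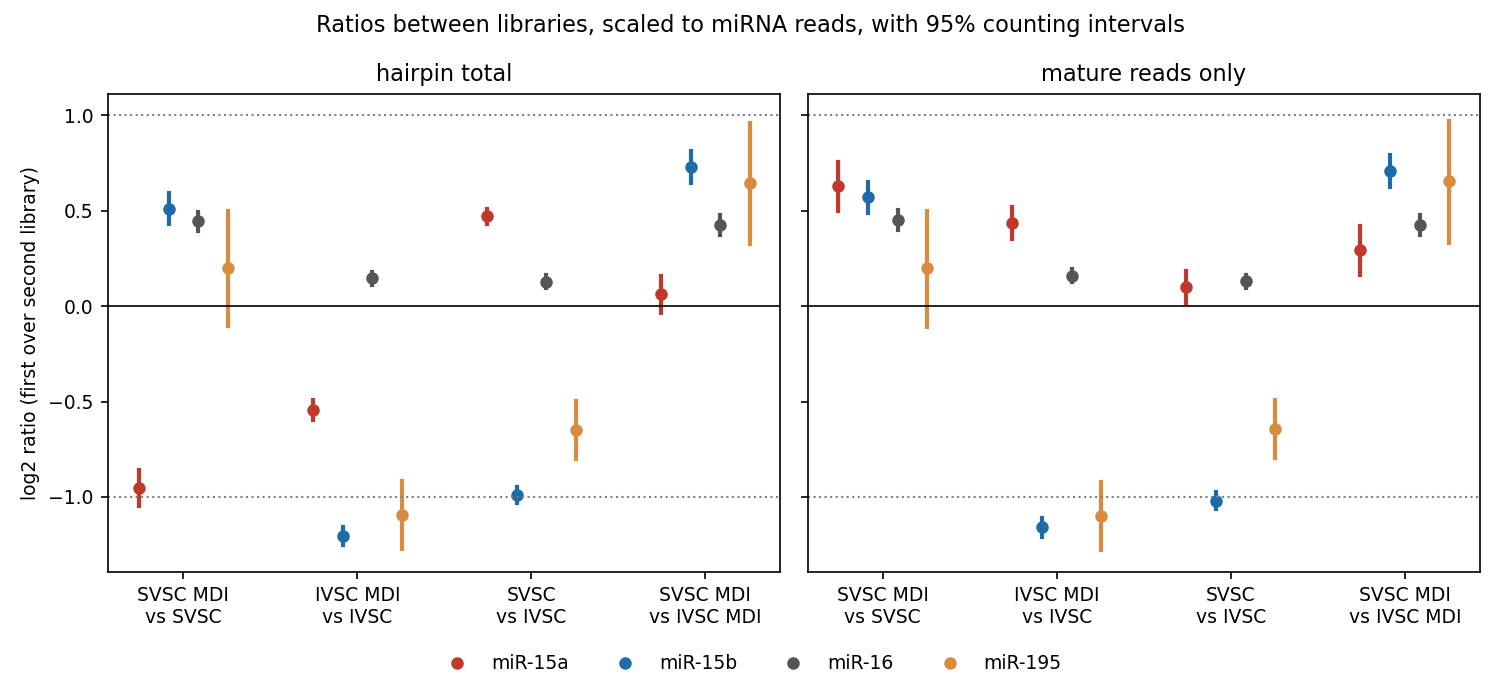
log2 ratio of each member in the 4 pairs of libraries, first-named over second-named, on whole hairpins and on mature reads alone, scaled to the miRNA reads of a library. Bars are 95% counting intervals and dotted lines mark 2-fold. miR-15a is below 0 with MDI in both cultures on whole hairpins and above 0 on mature reads. miR-15b and miR-195 are past 2-fold lower in IVSC MDI against IVSC. The small positive value of miR-195 in SVSC MDI against SVSC turns negative under each of the 4 other scalings (-0.30 to -0.20), and that of miR-16 under TMM (-0.061) and all reads (-0.042) only.

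miR-15a, the neighbour of a miR-16 copy, gave opposite directions on its hairpin and on its mature reads. On the hairpin its ratio was 0.517 (95% interval 0.484 to 0.551) in SVSC MDI over SVSC and 0.686 in IVSC MDI over IVSC, log2 values of -0.95 and -0.54. The SVSC value passed 2-fold under each of the 4 other scalings, with log2 ratios from -1.46 to -1.35. Its mature reads numbered 617 in SVSC MDI and 2785 in SVSC, or 239.8 and 155 mature reads scaled as CPM. In the muscle cultures they numbered 2899 in IVSC MDI and 1919 in IVSC, or 196 and 145 CPM. Mature miR-15a was thus higher with MDI in each culture by 1.54-fold (1.41 to 1.69) and 1.35-fold (1.28 to 1.43), under the 2-fold of the call. Over the 5 scalings the log2 ratio of the mature reads was 0.12 to 0.63 in SVSC and 0.40 to 0.65 in IVSC. The lowest SVSC value, with TMM, had an interval of -0.006 to 0.25, which includes 0. Exact mature matches went the same way, at 72.3 CPM (186 reads) in SVSC MDI and 20.1 CPM (360 reads) in SVSC, and at 46.5 CPM (688 reads) in IVSC MDI and 25.1 CPM (332 reads) in IVSC. As a share of mature miR-15a reads they were 30.1%, 12.9%, 23.7% and 17.3% in SVSC MDI, SVSC, IVSC MDI and IVSC.

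miR-15b, the neighbour of the other miR-16 copy, fell by 2.31-fold (95% interval 2.23 to 2.39) in IVSC MDI against IVSC. It had 5363 hairpin reads in IVSC MDI and 11079 in IVSC. Its log2 ratio was -1.21, and between -1.25 and -0.99 under the 4 other scalings, the value nearest to 0 being that by all reads, where it was just short of the call. In the subcutaneous cultures it had 1545 reads in SVSC MDI and 7557 in SVSC, a ratio of 1.43 (1.35 to 1.51). That log2 ratio of 0.51 was 0.0066 to 0.11 under the other scalings, positive in each but near 0. Mature miR-15b was at 558, 376, 341 and 762 CPM in SVSC MDI, SVSC, IVSC MDI and IVSC. IVSC stood above the other 3 libraries. Its exact matches were 71.8% of mature reads in SVSC MDI, 75.2% in SVSC, 68.2% in IVSC MDI and 77.7% in IVSC, lower with MDI in both cultures. The exact share was also taken for all miRNAs with at least 30 mature reads in every library, again 114 but another set than that above. Of these, 47 had a lower share with MDI in both cultures and 29 a higher share in both. miR-15a and miR-195 were among the 29. Counted from the largest rise, miR-15a ranked 7th in SVSC and 15th in IVSC, and miR-195 4th and 17th.

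miR-16 was called in none of the 4 pairs of libraries, on its hairpin or on mature or exact reads. Its mature reads were 3584 in SVSC MDI and 18264 in SVSC, and 15382 in IVSC MDI and 12329 in IVSC, or 1393, 1018, 1039 and 930 CPM. On the hairpin the ratio was 1.36 (1.31 to 1.41) in SVSC MDI over SVSC and 1.11 in IVSC MDI over IVSC. The SVSC log2 ratio of 0.44 was between -0.061 and 0.045 under the other scalings and had no direction across them, while the IVSC value was positive under each (0.11 to 0.36). Exact matches made up 79.4%, 81.9%, 80.4% and 81.9% of its mature reads in SVSC MDI, SVSC, IVSC MDI and IVSC, the highest of the members.

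miR-195, the neighbour of miR-497, fell by 2.14-fold (95% interval 1.89 to 2.42) in IVSC MDI against IVSC, with 397 hairpin reads in IVSC MDI and 759 in IVSC. By all reads its log2 ratio was -0.88, short of the call, against -1.13 to -1.01 by the other 3 scalings. In SVSC MDI against SVSC, with 108 and 655 reads, the ratio was 1.15 with an interval of 0.929 to 1.41, so no difference was detectable at this depth. The log2 ratio of 0.20 was negative under each of the other scalings, at -0.30 to -0.20. Nearly all its reads were mature, at 41.6, 36.2, 26.4 and 56.5 CPM in SVSC MDI, SVSC, IVSC MDI and IVSC. The share of these that matched exactly was 40.2% (30.8% to 50.1%) in SVSC MDI, against 17.3% (14.4% to 20.4%) in SVSC. In the muscle cultures it was 22.3% (18.2% to 26.7%) in IVSC MDI, against 16.2% (13.6% to 19.0%) in IVSC, where the intervals meet. miR-497 had 14.8 CPM in SVSC MDI, 8.20 CPM in SVSC, 9.32 CPM in IVSC MDI and 16.1 CPM in IVSC, with ratios of 1.80 in SVSC MDI over SVSC and 0.580 in IVSC MDI over IVSC. The mature reads of miR-195 were 2.89, 5.55, 2.96 and 4.49 times those of miR-497 in the same order of libraries. This ratio was lower with MDI in both cultures, and the intervals did not overlap, at 1.97 to 4.32 (SVSC MDI) against 4.55 to 6.81 (SVSC) and 2.43 to 3.64 (IVSC MDI) against 3.79 to 5.34 (IVSC). On whole hairpins it was 2.84 in SVSC MDI against 4.46 in SVSC and 2.88 in IVSC MDI against 3.56 in IVSC, with intervals that overlapped in each culture.

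The call rule was also applied to narrower read classes, each with its own background. On exact mature reads scaled to exact reads, miR-15a and miR-195 rose in SVSC MDI against SVSC with log2 ratios of 1.45 and 1.03, where 29.4% of 119 miRNAs were higher and 28.6% lower. In IVSC MDI against IVSC, exact miR-15b fell with a log2 ratio of -1.26, where 15.8% of 120 miRNAs were lower and 20.8% higher. Exact miR-15a was at 0.98 there, just short of 2-fold, and exact miR-195 was at -0.55, so its call on the hairpin was lost. Exact miR-195 was higher in SVSC MDI than in IVSC MDI, at 1.20, as were 7.69% of 117 miRNAs, against 18.8% lower. In SVSC against IVSC, 0 of 4 members were called on exact reads, where 14.8% of 122 miRNAs were higher and 18.9% lower.

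On all mature reads over miRNA reads, 0 of 4 members were called in SVSC MDI against SVSC, where 38.0% of 121 miRNAs were higher and 22.3% lower. In IVSC MDI against IVSC, miR-15b and miR-195 fell, where 20.6% of 126 miRNAs were lower and 20.6% higher. Between SVSC MDI and IVSC MDI, 0 of 4 were called, where 13.8% of 123 miRNAs were higher and 11.4% lower. When mature reads were instead scaled to mature totals, the same members passed in IVSC MDI against IVSC, where 16.8% of 137 miRNAs were lower and 22.6% higher. With that scaling 0 of 4 passed in SVSC MDI against SVSC, where 43.7% of 126 miRNAs were higher and 19.0% lower. For SVSC MDI against IVSC MDI, 0 of 4 passed, where 13.6% of 132 miRNAs were higher and 13.6% lower.

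Ratios between members within 1 library are free of the scaling between libraries. Mature miR-15b stood at 0.400 (95% interval 0.376 to 0.426) of mature miR-16 in SVSC MDI, 0.369 (0.359 to 0.379) in SVSC and 0.329 (0.318 to 0.339) in IVSC MDI, against 0.819 (0.798 to 0.841) in IVSC. Mature miR-195 was at 0.0299 of miR-16 in SVSC MDI, 0.0355 in SVSC and 0.0254 in IVSC MDI, against 0.0608 (0.0564 to 0.0654) in IVSC. IVSC thus stood apart from the other 3 libraries for both members. The ratio of miR-195 to miR-15b was 0.0746, 0.0963, 0.0774 and 0.0742 in SVSC MDI, SVSC, IVSC MDI and IVSC, so here SVSC was the highest and IVSC was close to the MDI libraries. Mature miR-15a to miR-16 stayed within 0.152 and 0.188 in all 4 libraries, at 0.172 (0.158 to 0.188) in SVSC MDI, 0.152 (0.146 to 0.159) in SVSC, 0.188 (0.181 to 0.196) in IVSC MDI and 0.156 (0.148 to 0.163) in IVSC. On whole hairpins the same ratio was 0.275, 0.723, 0.354 and 0.571. IVSC was also the library with the highest summed muscle markers (6275 CPM, against 888 to 1853 CPM in the others). Most of that sum was miR-206 (4874 CPM), and miR-133b was highest in IVSC too (68.8 CPM). The other muscle markers peaked elsewhere. miR-1 was highest in SVSC (1818 CPM, against 1242 CPM in IVSC), miR-133a in SVSC MDI (199 against 78.2 CPM) and miR-499 in IVSC MDI (13.3 against 12.8 CPM). The part of these markers in the values of miR-15b and miR-195 was not tested.

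**Figure D4:**
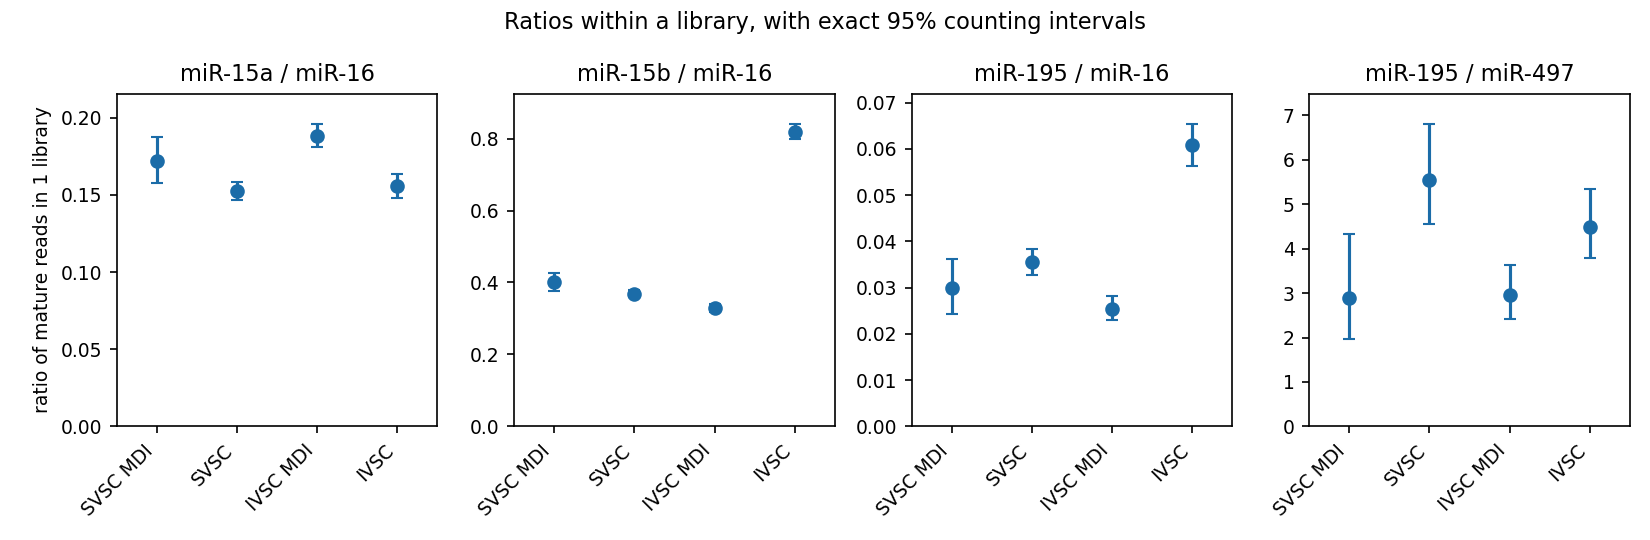
Ratios of mature reads within each library, with 95% counting intervals, for miR-15a, miR-15b and miR-195 over miR-16 and for miR-195 over miR-497, each panel on its own linear axis from 0. miR-15b (0.819) and miR-195 (0.0608) are highest in IVSC, while miR-15a stays between 0.152 and 0.188, and miR-195 over miR-497 is lower in each MDI library (2.89 in SVSC MDI, 2.96 in IVSC MDI) than in its undifferentiated culture (5.55 in SVSC, 4.49 in IVSC).

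The response to MDI was set side by side in the 2 cultures, as the log2 ratio in SVSC minus that in IVSC. It differed by at least 1 with an interval excluding 0 for 2 of 4 members, both larger in SVSC, where 34.2% of 155 miRNAs were larger in SVSC and 12.3% smaller. The difference was 1.72 (1.63 to 1.81) for miR-15b and 1.30 (0.95 to 1.64) for miR-195. For miR-15b it stayed at 1.01 to 1.31 under the 4 other scalings, and for miR-195 it was 0.59 to 0.89, short of the call in each. miR-16 differed by 0.30, which was negative under each other scaling (-0.41 to -0.11). miR-15a differed by -0.41 (-0.51 to -0.30) on the hairpin, and by 0.19 on mature reads over all miRNA reads. On the hairpin its difference was -0.89 to -0.81 with TMM, with DESeq2 size factors and without miR-21. By all reads it was -1.11, past the call with the smaller value in SVSC. The family sum gave log2 ratios of 0.12 in SVSC and -0.40 in IVSC, and the SVSC value was negative under each other scaling (-0.38 to -0.28).

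**Figure D5:**
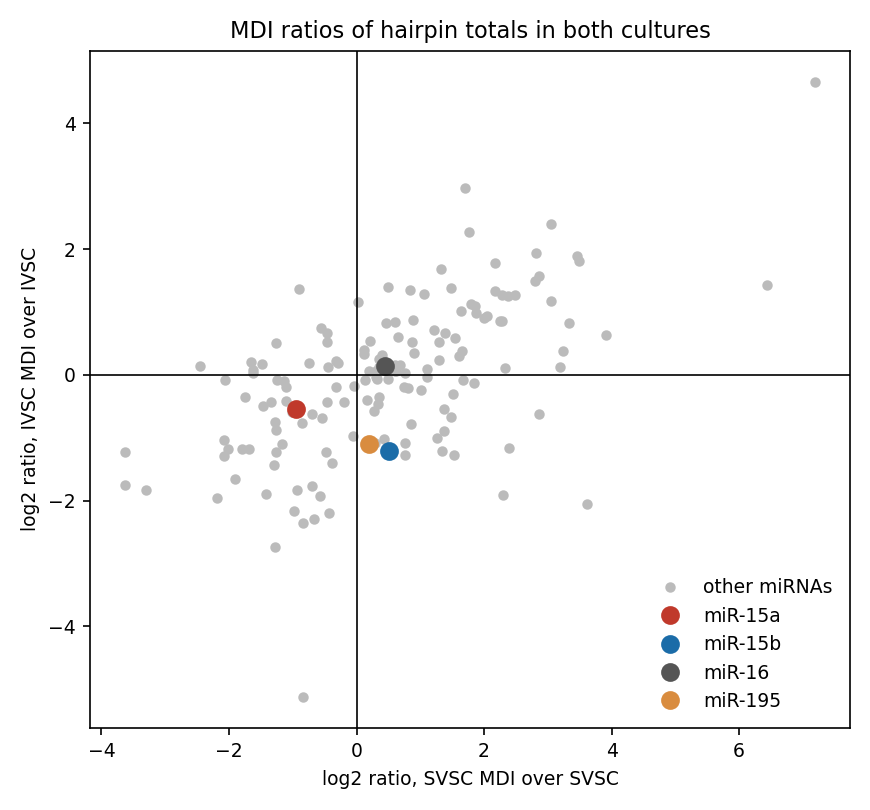
log2 ratio with MDI in IVSC against that in SVSC for all miRNAs compared, hairpin totals scaled to miRNA reads, with the members marked. miR-15b (0.51 in SVSC, -1.21 in IVSC) and miR-195 (0.20 and -1.10) lie on opposite sides of 0 in the 2 cultures, though the SVSC value of miR-195 turns negative under each other scaling. miR-15a is below 0 in both.

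Between the undifferentiated cultures, SVSC against IVSC, 0 of 4 members were called, where 7.43% of 148 miRNAs were higher and 20.9% lower. miR-15b came nearest with a ratio of 0.504, 1.98-fold lower in SVSC, and a log2 ratio of -0.99, or -0.80 to -0.62 under other scalings. On mature reads over all miRNA reads it was past the call at -1.02, as were 18.9% of 122 miRNAs in that direction, with 8.2% higher. Scaled to mature totals it was past the call too, at -1.23, as were 27.7% of 130 miRNAs in that direction, with 5.38% higher. miR-195 had a ratio of 0.638, miR-16 of 1.09 and miR-15a of 1.38, the last being 1.07 on mature reads. The other scalings shifted this comparison by 0.18 to 0.37 on the log2 scale. The family sum, at 0.942 by miRNA reads, had a log2 ratio of -0.09, and of 0.10 to 0.28 by the others.

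Between the induced cultures, SVSC MDI against IVSC MDI, 0 of 4 members were called, where 17.7% of 147 miRNAs were higher and 10.2% lower. The ratios were 1.66 for miR-15b, 1.57 for miR-195, 1.34 for miR-16 and 1.04 (0.975 to 1.12) for miR-15a, which was not detectably different. The other scalings shifted this comparison by -0.52 to -0.04. By all reads the log2 ratio was 0.21 for miR-15b and 0.13 for miR-195, while those of miR-16 and miR-15a were negative, at -0.094 and -0.46. miR-15a was also negative with TMM (-0.057) and without miR-21 (-0.089). Mature miR-15a was 1.22-fold higher in SVSC MDI by miRNA reads, and its log2 ratio of 0.29 turned to -0.23 by all reads.

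One fit over the 4 libraries took MDI and culture as additive terms. It has 1 residual degree of freedom, which is the difference of the MDI response between cultures, and does not measure the spread between animals. By edgeR's quasi-likelihood test with Benjamini-Hochberg adjustment over 179 miRNAs, 0 of 4 members passed the threshold for MDI, where 6.15% of miRNAs were higher and 4.47% lower. The log2 effect of MDI was -0.92 (SE 0.57, adjusted p = 0.33) for miR-15a and -0.52 (SE 0.57, adjusted p = 0.65) for miR-15b in edgeR. It was 0.13 (SE 0.55, adjusted p = 0.97) for miR-16 and -0.62 (SE 0.82, adjusted p = 0.73) for miR-195. In edgeR the p-values rest on a variance drawn from all miRNAs together, not on that of the member alone. Each SE was worked back from the effect and its F statistic. For SVSC against IVSC over both states, 0 of 4 members passed, where 0.559% of miRNAs were higher and 2.23% lower. These effects lay between 0.03 and 0.44, each with an adjusted p of 0.996 in edgeR. At an unadjusted p under 0.05, edgeR passed 0 members in either effect, and DESeq2 called 0. The share of all miRNAs was computed for neither, so these counts cannot be set against a background. On mature reads edgeR also called 0 of 4 members, where 11.4% of 158 miRNAs were higher and 8.23% lower for MDI, and 0 were higher and 3.8% lower for SVSC.

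Other miRNAs related by seed or by locus were also measured. miR-424, which shares the seed region, was more abundant than any member, at 2868 CPM in SVSC MDI, 1528 CPM in SVSC, 1744 CPM in IVSC MDI and 1366 CPM in IVSC. Its ratios were 1.88 in SVSC MDI over SVSC and 1.28 in IVSC MDI over IVSC. miR-503, which lies in a cluster with miR-424 in mammals, had 47.8, 85.9, 42.6 and 219 CPM. It fell by 5.14-fold (4.71 to 5.61) in IVSC MDI against IVSC. In SVSC MDI over SVSC its ratio was 0.556 (0.459 to 0.669) on the hairpin, short of the call. On mature reads scaled to mature totals that ratio was 0.449 (0.336 to 0.589), past the call, as were 19.0% of 126 miRNAs in that direction. miR-503 was also 2.55-fold (2.39 to 2.71) lower in SVSC than in IVSC, a value that the shift of the other scalings brings close to 2-fold. IVSC thus had the highest level of miR-503 as well as of miR-15b and miR-195.

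The profile over the 4 libraries was compared with that of each miRNA at 100 CPM or more in every library, as the Euclidean distance between log2 CPM values centred on their means. Nearest to miR-15b were miR-378 (0.20), miR-214 (0.61) and miR-101 (0.65). miR-195 lay nearest to miR-15b (0.27), then miR-378 (0.32) and miR-214 (0.46). For miR-15a the nearest were miR-450b (0.25), miR-151 (0.32) and miR-185 (0.36). For miR-16 they were miR-1307 (0.13), miR-98 (0.27) and miR-27a (0.31). The distances rest on 4 libraries and describe them only.

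The miR-17 to miR-92a cluster, its relatives and miR-221 and miR-222 are known to promote proliferation in many mammalian cells. Of the 13 miRNAs on that list, 10 had an entry with reads. The others, miR-25, miR-93 and miR-106b, had no entry in any library, so whether the cells held them cannot be told. In IVSC MDI against IVSC, 4 of the 10 fell and 0 rose, with a median log2 ratio of -0.94 against -0.04 over all miRNAs compared. Of all miRNAs compared there, 23.7% fell and 16.4% rose. On whole hairpins miR-221 fell by 4.47-fold, miR-363 by 3.56-fold, miR-106a by 2.26-fold and miR-20a by 2.04-fold. The fall of miR-221 lay mainly in the rest of its hairpin, with 30523 such reads in IVSC and 3206 in IVSC MDI. Its mature reads numbered 8639 in IVSC and 6583 in IVSC MDI. In SVSC MDI against SVSC, 4 of the 10 fell and 3 rose, with a median of -0.72 against 0.41. Over all miRNAs of that pair, 21.9% fell and 34.2% rose. miR-363, miR-20a, miR-106a and miR-17 fell by 9.81-fold, 4.24-fold, 4.02-fold and 2.40-fold, while miR-19a, miR-19b and miR-92a rose by 2.01-fold, 2.39-fold and 3.20-fold. Under each of the 4 other scalings, 5 fell and 1 rose in SVSC MDI against SVSC. In IVSC MDI against IVSC, 0 rose under any of them, and 2 fell by all reads, 3 without miR-21 and 5 with TMM or DESeq2 size factors. In SVSC against IVSC, 3 of the 10 were lower and 0 higher, with a median of -0.50 against -0.25. Over all miRNAs of that pair, 20.9% were lower and 7.43% higher. With TMM, with DESeq2 size factors and without miR-21, 1 was lower and 2 were higher, and by all reads 2 were lower and 0 higher. In SVSC MDI against IVSC MDI, 1 of the 9 compared was lower and 0 higher, with a median of -0.20 against 0.13, and by all reads 2 were lower. By miRNA reads, 10.2% of all miRNAs of that pair were lower and 17.7% higher. Shares of all miRNAs called were not computed under the other scalings. On mature reads over miRNA reads, the median of the 4 members was 0.51 in SVSC MDI against SVSC, above the 0.45 over all miRNAs compared. It was -0.47 in IVSC MDI against IVSC, below the 0.11 over all. The list of 10 had medians of -0.33 and -0.71 on that read class, in the same order of pairs.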

How the data were processed

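Small RNA of 16 to 35 nt from about 10 µg of total RNA was amplified for 12 PCR cycles and sequenced for 36 cycles, per the labels' protocols. The deposited values are counts of reads per hairpin entry in the classes exact mature, mature, star, other and total, per the file headers. Unique mature reads in the deposited SVSC file are treated as a score, because a Rfam value there is damaged, and only hairpin entries of that column were used. The aligner and its mismatch setting are not given in the sources used. Copies of a hairpin share reads, so a miRNA was counted once (its largest copy plus the uniquely matching mature reads of the others). Counts were scaled to the miRNA reads of a library. Ratios have exact Clopper-Pearson 95% intervals (SciPy 1.17.1), which take in counting error alone: amplified reads lacking molecular identifiers do not each stand for a molecule. Where no read was seen, 3 reads served as the floor. edgeR 4.0.16 and DESeq2 1.42.0 ran in R 4.3.3, with Python 3.11.15, pandas 2.3.3 and NumPy 2.4.6 for the rest. The methods were tested on simulated data. All 4 members were named in every comparison; relatives, the likeness rule, the proliferation list and the cell type markers were fixed lists. Members and lists were chosen with earlier results of these data known. Alternatives were other scalings, mature or exact reads, summed copies, a 1.5-fold threshold, no low-count filter and DESeq2.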

Additional observations from a re-analysis of the deposited data

Results flagged for a closer look

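Scaled to miRNA reads, the log2 ratio with MDI was above 0 in SVSC and below 0 in IVSC for miR-15b (0.51 and -1.21), miR-195 (0.20 and -1.10) and the family sum (0.12 and -0.40). The log2 ratio in SVSC minus that in IVSC was 1.72 for miR-15b, 1.30 for miR-195 and 0.52 for the family sum. Each group is 1 library, so the difference was not tested. The SVSC value of miR-195 has a counting interval that includes 0. The SVSC values of miR-195 and of the family sum are below 0, as in IVSC, under each of the 4 other scalings. By all reads the differences were 1.01 for miR-15b, 0.59 for miR-195 and -0.19 for the family sum.

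Reads on Rfam entries of the same families lie outside the measurement used above and exceeded the limit of 3 reads that a count of 0 allows. Entries of the mir-15 family held 15 reads in SVSC MDI, 50 in SVSC, 97 in IVSC MDI and 40 in IVSC. Entries of the mir-16 family held 7 reads in SVSC MDI, 36 in SVSC, 50 in IVSC MDI and 21 in IVSC. All are small beside the hairpin reads of the members.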

How the results depend on the processing

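No paired analysis was possible because each group has 1 library, so no replicate numbers pair samples across groups. The fit over all 4 libraries takes culture, not a replicate, as its block. Leaving out a library was not run for the same reason. At 108 reads of miR-195 in SVSC MDI, its counting interval in SVSC MDI against SVSC includes a ratio of 1.

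Values are log2 ratios and the cause of each change was not tested. In SVSC MDI against SVSC the family sum became -0.38 with TMM, -0.30 with DESeq2 size factors, -0.36 by all reads and -0.28 without miR-21, and each of these called 1 member (miR-15a, lower). miR-16 became -0.061 with TMM and -0.042 by all reads, and miR-195 -0.30, -0.22, -0.28 and -0.20 in the order above. On mature reads these scalings gave miR-16 -0.053 (TMM) and -0.033 (all reads), and miR-195 -0.30, -0.22, -0.28 and -0.20. In SVSC against IVSC the family sum became 0.26, 0.28, 0.10 and 0.25 in the same order, and 0.062 with copies summed. In SVSC MDI against IVSC MDI miR-15a became -0.057 with TMM, -0.46 by all reads and -0.089 without miR-21. By all reads miR-16 became -0.094 and the family sum -0.089, and on mature reads miR-15a became -0.23 and miR-16 -0.10. By all reads 0 members were called in IVSC MDI against IVSC. For the difference of responses miR-16 became -0.17, -0.11, -0.41 and -0.19 in the order above, and the family sum -0.19 by all reads. Members called there numbered 1 with TMM, with DESeq2 size factors and without miR-21. By all reads they numbered 2, miR-15b and, in the other direction, miR-15a at -1.11. The share of all miRNAs called was not computed under these scalings, so none of these counts of members can be set against a background.

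Mature reads scaled to mature totals gave miR-15a 0.93 in SVSC MDI against SVSC, 0.50 in IVSC MDI against IVSC, -0.11 in SVSC against IVSC, 0.43 for the difference of responses and 0.33 for the MDI effect. They gave miR-16 -0.083 and 1 member called in SVSC against IVSC. Scaled to all miRNA reads, chosen after seeing the data, they gave miR-15a 0.63, 0.43 and 0.19 (the difference), and 1 member called in SVSC against IVSC. Exact mature reads gave miR-15a 1.45, 0.98, -0.14 in SVSC against IVSC, 0.47 for the difference and 1.18 for the MDI effect. They gave miR-195 0.19 for the MDI effect, miR-16 -0.21 for the difference and miR-15b -0.054 for the SVSC effect. Members called with exact reads numbered 2 in SVSC MDI against SVSC, 1 in IVSC MDI against IVSC and 1 in SVSC MDI against IVSC MDI. At 1.5-fold they numbered 1 in SVSC MDI against SVSC, 2 in SVSC against IVSC and 2 in SVSC MDI against IVSC MDI. The share of all miRNAs past 1.5-fold was not computed, so these counts cannot be set against a background. The SVSC effect of miR-15b became -0.017 without the low-count filter and -0.0085 with copies summed. Set over mature plus star reads, the mature share was 100% for each member in each library. With no star read counted for any member, that outcome was fixed in advance and does not measure arm use.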

Other observations

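The pair of miR-16 copies could be told apart by few reads. Mature reads unique to copy 1 and copy 2 numbered 21 and 27 in SVSC MDI, 97 and 36 in SVSC, 43 and 66 in IVSC MDI, and 41 and 19 in IVSC. They made up between 0.487% and 1.35% of mature miR-16 reads. Copy 1 held 43.8% of them (95% interval 29.5% to 58.8%) in SVSC MDI, against 72.9% (64.5% to 80.3%) in SVSC. It held 39.4% (30.2% to 49.3%) in IVSC MDI, against 68.3% (55.0% to 79.7%) in IVSC. The share was lower with MDI in both cultures and the intervals did not overlap. Intervals cover counting error only. On the rest of the hairpin copy 1 held 58.1% in SVSC MDI, 51.3% in SVSC, 57.8% in IVSC MDI and 63.3% in IVSC, which did not share that pattern. The gene table gives both copy names as synonyms of both loci, so neither copy is assigned to miR-15a or to miR-15b here.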
